A study of Mus musculus with 10 samples.

Results

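Arpp21, R3hdm1 and R3hdm2 are related genes that code for proteins with an R3H domain, and their transcripts were followed from young to settled neurons of the embryonic mouse cortex in Gatad2b mutants. They were chosen by name, 3 of the 31053 genes counted, because Arpp21 had been seen to be lower in upper-layer neurons of the mutants. For that reason all values from migrating and settled upper-layer neurons are given as a description, without a test between genotypes. Single cell RNA sequencing was done on cortices dissected at E16.5 from 10 embryos, 1 library for each embryo. WT embryos (Gatad2b +/+, n = 3) were compared with Het embryos (Gatad2b stop/+, n = 4) and KO embryos (Gatad2b stop/stop, n = 3). The stop allele is the gene trap Gatad2b tm1a(EUCOMM)Hmgu, in which a LacZ trapping cassette sits in an intron near the start of the coding region and the exons are kept, on a C57BL/6N-Atm1Brd background. All cells of a mutant embryo carry it, not only neurons, and homozygous animals die around birth. Gatad2b codes for a subunit of NuRD, a complex that couples nucleosome remodeling with the removal of acetyl groups from histones.

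ARPP-21, the product of Arpp21, is known in 2 forms. The short form is a small phosphoprotein that protein kinase A phosphorylates in medium spiny neurons of the striatum, where it binds calmodulin. The long form carries the R3H domain, binds RNA and works with the cap-binding translation machinery, and it promotes dendrite growth. R3hdm1 and R3hdm2 code for relatives of the long form that are much less studied. The counting was at the 3' end of transcripts and does not separate the forms.

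Arpp21 (ENSMUSG00000032503) lies on the minus strand at chr9:112065091-112235938 of GRCm38, R3hdm1 (ENSMUSG00000056211) on the plus strand at chr1:128103301-128237736, and R3hdm2 (ENSMUSG00000025404) on the plus strand at chr10:127380327-127499384. GENCODE gives 14 coding transcripts for Arpp21, 8 for R3hdm1 and 16 for R3hdm2. Arpp21 and R3hdm1 each hold a hairpin of miR-128, a neuronal microRNA that is known to act on dendrites in the opposite direction to ARPP-21. The Mir128-2 hairpin (chr9:112118636-112118711, minus strand) lies in an intron of 7 coding transcripts of Arpp21, and the Mir128-1 hairpin (chr1:128202361-128202430, plus strand) in an intron of 2 coding transcripts of R3hdm1. Neither overlaps an exon of those transcripts, and R3hdm2 holds no miR-128 hairpin. The mature sequences are shown because they are what both host genes share, with the seed (bases 2 to 8) in capitals, as RefSeq lists them for GRCm38.p6.
mmu-miR-128-3p: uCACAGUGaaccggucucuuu
mmu-miR-128-1-5p: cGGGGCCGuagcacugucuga
mmu-miR-128-2-5p: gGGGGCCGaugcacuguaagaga
The 3p form is the same from both hairpins, and its seed occurs in no other of the 1679 mature mouse microRNAs listed by RefSeq. The 5p forms share a seed with each other and with no other entry. The libraries count polyadenylated transcripts and hold no value for the microRNA itself.

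Of 80071 cell barcodes, 65779 passed the minimum of 1000 UMIs and the limit of 10% for mitochondrial UMIs, with 5147 to 8103 cells and 82872641 to 123737385 UMIs per embryo. Libraries shared at most 0.325% of their barcodes. The cells formed 25 clusters, of which 18 received 1 of 13 class names from their markers and 7 stayed unnamed (19.1% to 23.8% of each embryo's cells). Class names are rebuilt from markers and are written with "-like". Gatad2b itself fell in 8 of 10 tested classes of KO embryos, by 0.87 (striatal-like cells) to 1.66 (layer VI-like cells) on the log2 scale, and was at -1.51 in erythroid-like and -2.30 in microglia-like cells, not called. Libraries carry 1 of 2 name prefixes whose meaning is not stated: all WT embryos and Het4 have one, and Het1 to Het3 and all KO embryos the other. The prefix and the difference between KO and WT can therefore be separated only through Het4, and values with the prefix in the fit, or counts of the calls that held, are given beside the calls.

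Arpp21 was a transcript of settled excitatory neurons. In WT embryos it had 632 ± 18.7 CPM (counts scaled to a common library total, mean ± SD of 3 embryos) in layer VI-like cells, the highest level of the 13 classes, and 15.98 ± 7.90 CPM in intermediate progenitor-like cells, the lowest, a 39.6-fold range. Layer V-like cells had 312 ± 17.6 CPM and settled upper-layer-like cells 286 ± 13.3 CPM, and the embryos of these neighbours overlapped (292 to 323 and 271 to 297 CPM). Striatal-like cells followed with 122 ± 7.36 CPM, apart from the classes above and below. The cortex preparations thus held cells with striatal markers, from which the class was named. Each of the 13 listed striatal markers was counted in this class in some embryo, however few its UMIs. Migrating upper-layer-like cells had 91.0 ± 6.90 CPM, so that settled upper-layer-like cells held 3.14-fold more than the migrating ones. Interneuron-like cells (40.8 ± 4.59 CPM), Cajal-Retzius-like cells (40.7 ± 20.6 CPM), radial glia-like cells (29.9 ± 11.98 CPM), microglia, vessel and erythroid-like cells made up the rest of the order, and none of these neighbours was apart from the next. Endothelial-like cells, at 96.2 ± 21.3 CPM, numbered as few as 11 in an embryo and 344 in Het3, which stood apart there.

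**Figure D1:**
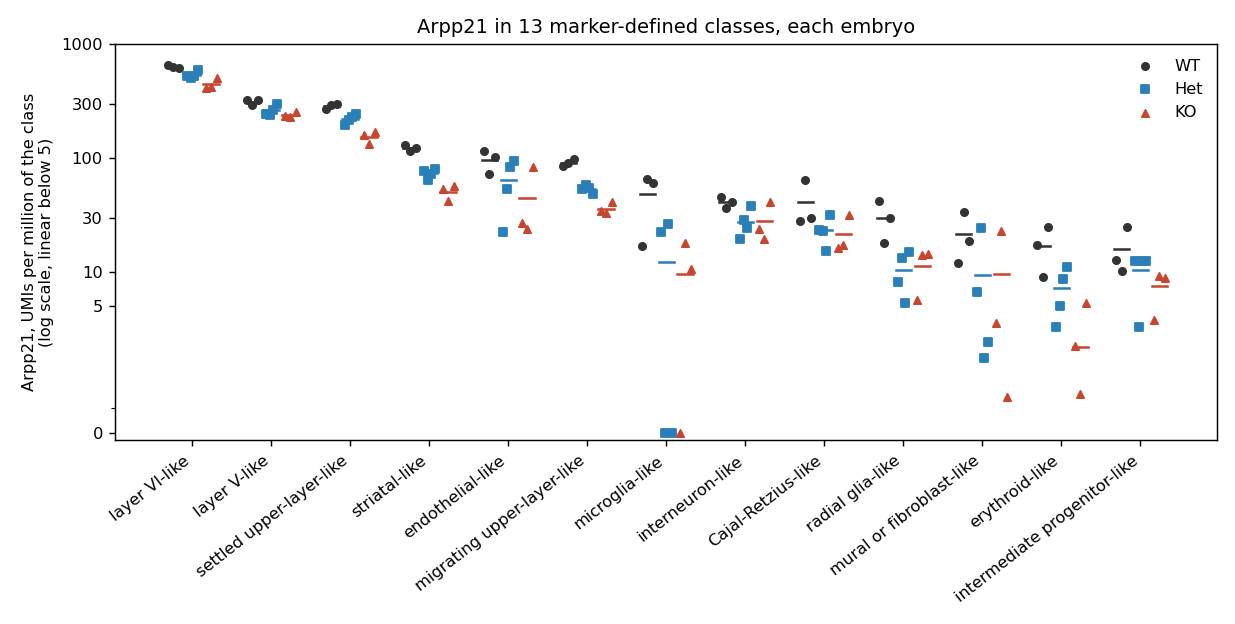
Arpp21 in each of the 13 named classes, in CPM on an axis that is linear near 0 and logarithmic above; each dot is 1 embryo and each bar the mean of a genotype. Layer VI-like cells stand highest in WT (632 CPM), and the KO dots lie below the WT dots in both deep-layer classes, both upper-layer classes and striatal-like cells. They also lie below WT at the low levels of radial glia-like, intermediate progenitor-like and erythroid-like cells.

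The low values were compared with free RNA, which gives UMIs in cells that do not express a gene. Erythroid-like cells, which should not express a neuronal gene, had 17.0 ± 7.89 CPM of Arpp21 in WT embryos, 7.23 ± 3.19 in Het and 3.41 ± 1.88 in KO, from 2 to 39 UMIs per embryo. With each cell thinned to 3000 UMIs, an Arpp21 UMI was found in 2.64% of WT erythroid-like cells (5.55% unthinned), 3.16% of intermediate progenitor-like, 5.93% of radial glia-like and 6.59% of interneuron-like cells. The share was 19.2% in striatal-like cells (33.1% unthinned), 21.9% in migrating upper-layer-like, 50.1% in settled upper-layer-like, 56.1% in layer V-like and 80.1% in layer VI-like cells. Erythroid-like cells of WT embryos had a lowest median of 6179.5 UMIs per cell and striatal-like cells one of 7175. In WT the level of intermediate progenitor-like cells (15.98 CPM) was near that of erythroid-like cells, while that of radial glia-like cells (29.9 CPM) was higher in the mean with embryos that overlapped (17.99 to 41.9 against 8.95 to 24.7 CPM). In KO embryos both progenitor classes had more than erythroid-like cells (11.4 and 7.55 against 3.41 CPM in the mean). The part of free RNA in these values was not tested. Of all Arpp21 UMIs in WT embryos, 35.5% were in settled upper-layer-like cells, 18.1% in layer V-like, 17.2% in layer VI-like, 3.50% in striatal-like, 3.03% in migrating upper-layer-like and 19.0% in unnamed cells. One unnamed cluster, with a median of only 1520.5 UMIs per cell, had the highest level of any cluster, 1928 ± 79.3 CPM in WT. Arpp21 was among its 10 leading genes. This cluster held 3.97% to 4.50% of cells in WT embryos and 3.27% in Het4, against 0.56% to 1.89% in the other embryos. Its part in values over all cells and in free RNA was not tested.

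The genes whose WT levels over the 13 classes were most like those of Arpp21 were also highest in layer VI-like cells, which this choice favours. Among 6330 genes these were A830018L16Rik (r = 0.93 of log2(CPM + 1) over 13 classes), Camkv (0.92), which codes for a kinase-like protein that binds calmodulin, Tenm2 (0.92), a teneurin of the synaptic membrane, Shtn1 (0.92), which codes for the axon growth protein shootin1, and Prkar2b (0.90), a regulatory subunit of protein kinase A. The classes share libraries and depth, and some are small, so these are descriptions. The relatives were less alike, with r = 0.48 for R3hdm1 and 0.43 for R3hdm2.

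R3hdm1 and R3hdm2 were spread much more evenly. Leaving out erythroid-like cells, R3hdm1 ranged 2.22-fold between classes, from 225 ± 4.34 CPM in striatal-like cells to 101 ± 33.5 CPM in microglia-like cells. Settled upper-layer-like (215 ± 2.09 CPM), layer VI-like (210.0 ± 10.4 CPM), migrating upper-layer-like (208 ± 12.9 CPM) and interneuron-like cells (206 ± 10.1 CPM) did not differ beyond their spread. R3hdm2 ranged 2.21-fold, from 187 ± 8.68 CPM in migrating upper-layer-like cells to 84.8 ± 18.8 CPM in endothelial-like cells. From migrating to settled upper-layer-like cells the level of R3hdm2 went down (to 147 ± 1.14 CPM, a ratio of 0.79), that of R3hdm1 was about level (ratio 1.03) and that of Arpp21 went up. Erythroid-like cells had 14.4 ± 4.39 CPM of R3hdm1 and 12.3 ± 4.57 CPM of R3hdm2. Over the 13 classes R3hdm1 and R3hdm2 had r = 0.98, a value to which the low erythroid-like point contributes.

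**Figure D2:**
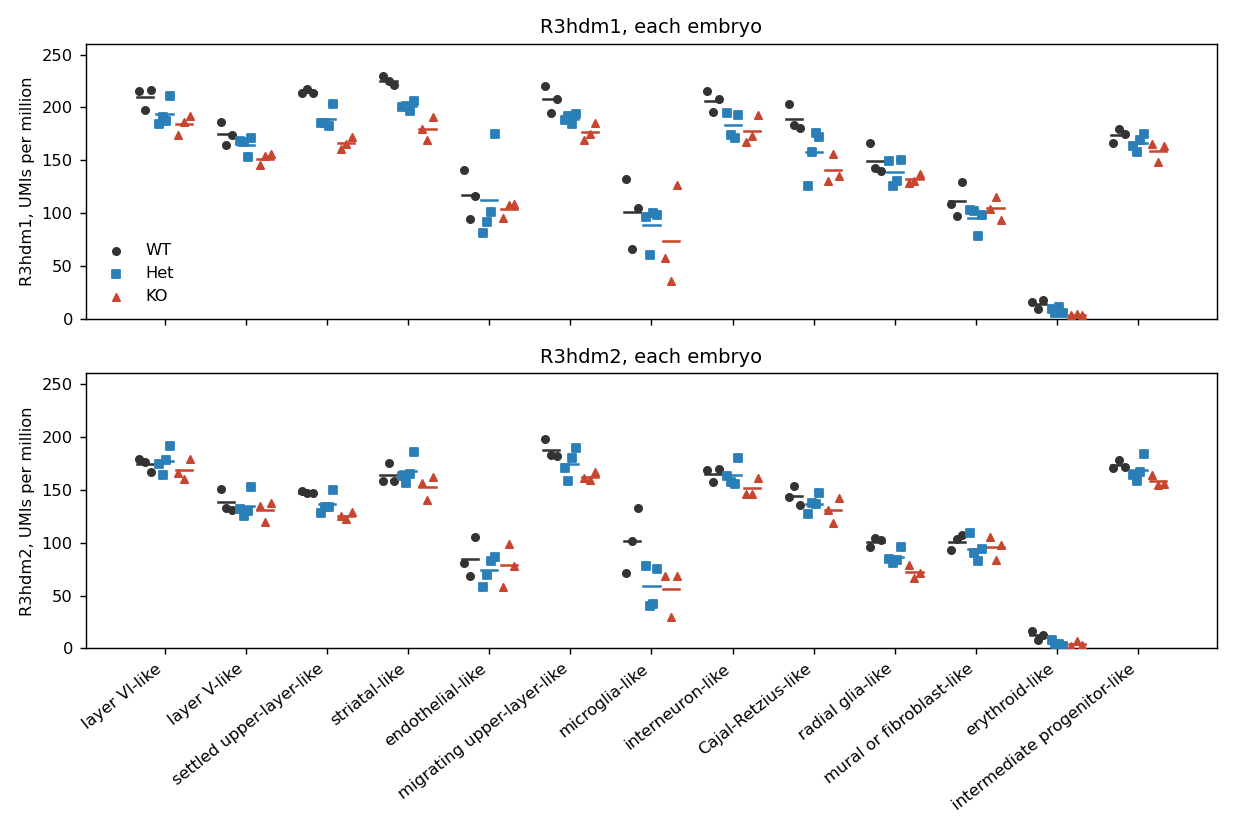
R3hdm1 and R3hdm2 in each of the 13 named classes, in CPM; each dot is 1 embryo and each bar the mean of a genotype. Apart from erythroid-like cells, both genes lie within 2.22-fold between classes in WT, and the genotypes lie close together in most classes.

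In upper-layer neurons, where Arpp21 had been chosen for its fall, the levels were ordered by genotype. Values of single embryos from here on are CPM after TMM scaling, which adjusts for composition between libraries, with these exceptions. Values over all cells, of single clusters, of marker sums, of Dcx, of the genes most like Arpp21, of erythroid-like cells and of outliers are unscaled CPM. Fold changes are on the log2 scale with their standard error. Migrating upper-layer-like cells had 82.5, 88.9 and 96.0 CPM of Arpp21 in WT, 54.2, 57.6, 54.3 and 48.2 in Het, and 35.2, 33.5 and 41.3 in KO. The groups did not overlap, and the log2 fold change was -0.74 ± 0.08 in Het and -1.28 ± 0.09 in KO. The share of all genes whose groups do not overlap was not counted. Overlap is therefore given here and below only as a description. Settled upper-layer-like cells had 267, 287 and 289 CPM in WT, 197, 218, 229.8 and 241 in Het, and 161, 134 and 167 in KO, again without overlap (-0.34 ± 0.07 in Het, -0.87 ± 0.08 in KO). With the prefix in the fit the settled cells gave -0.22 ± 0.10 in Het and -0.71 in KO. The class joins 2 clusters, in which KO was at -1.17 ± 0.07 and -0.59 ± 0.08, a wider gap than that between the migrating and the settled class.

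The relatives differed less between genotypes in the same upper-layer neurons. R3hdm1 in settled upper-layer-like cells had 211, 214 and 208 CPM in WT, 188, 187, 184 and 202 in Het, and 164, 168 and 171 in KO (-0.15 ± 0.04 in Het, -0.33 ± 0.04 in KO). In migrating upper-layer-like cells its change was -0.10 ± 0.05 in Het and -0.18 ± 0.05 in KO. For R3hdm2 the settled cells had 146, 145 and 143 CPM in WT, 129, 135, 134 and 149 in Het, and 129, 124 and 128 in KO. The Het embryos overlapped with WT there, the KO embryos did not (-0.19 ± 0.05), and the migrating cells gave -0.15 ± 0.06 in KO. With the prefix in the fit these KO values were -0.02 ± 0.06 and 0.01 ± 0.09, and those of Het turned from -0.08 to 0.04 in settled and from -0.07 to 0.05 in migrating cells. Over all cells together, Arpp21 had 205 ± 9.01 CPM in WT, 151 ± 16.8 in Het and 119 ± 9.91 in KO. R3hdm1 had 195 ± 5.57, 175 ± 9.85 and 161 ± 6.35 CPM, and R3hdm2 149 ± 2.79, 143 ± 11.7 and 135 ± 5.42 CPM, in the same order. In these sums fewer cells of an expressing class and less RNA per cell cannot be told apart.

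**Figure D3:**
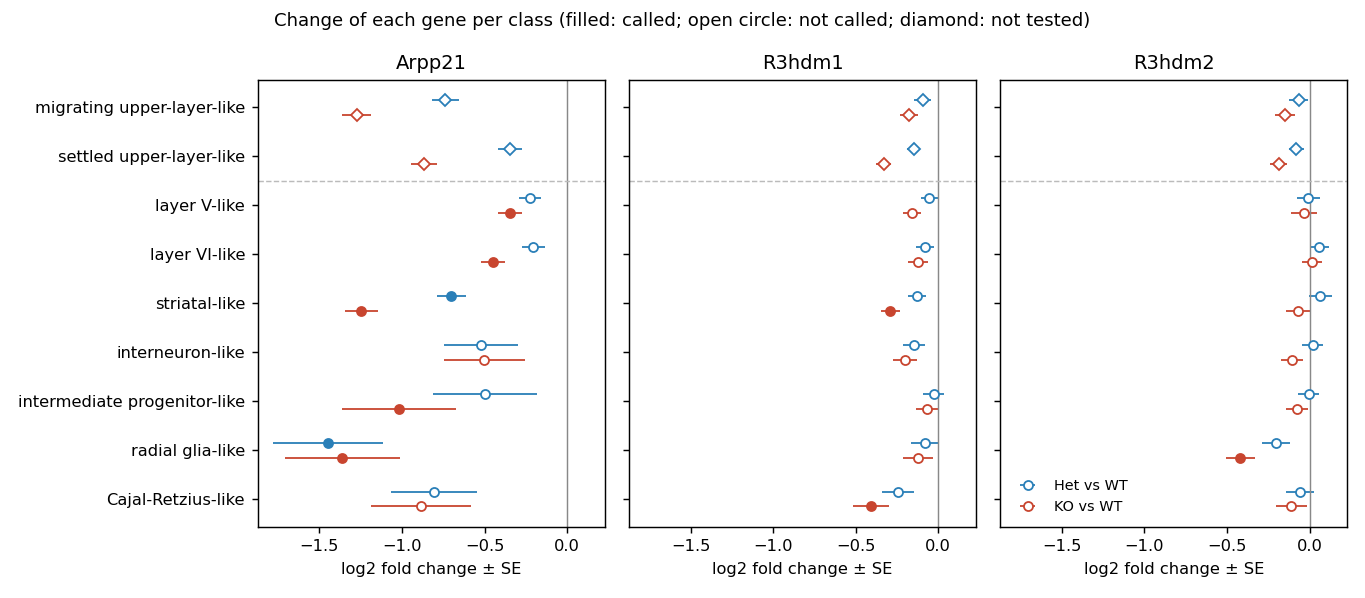
Log2 fold change (± SE) against WT of Arpp21, R3hdm1 and R3hdm2 in 9 classes, for Het and KO embryos; filled points passed the test, open circles did not, and diamonds in the upper-layer classes were not tested. Arpp21 lies below 0 in all 9 classes for both genotypes, with -1.25 in striatal-like cells of KO embryos, and R3hdm1 and R3hdm2 lie closer to 0 in most classes.

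The following tests are of classes that the choice of Arpp21 did not use, but they come from the same embryos, and the study also listed Arpp21 from these libraries, so they are not independent evidence of its direction. Het and KO were compared with the same WT embryos. A call needed an adjusted p under 0.05 together with a log2 fold change beyond 0.25 in either direction, in edgeR's quasi-likelihood test of UMIs summed per embryo and class, with Benjamini-Hochberg adjustment over all genes of the class. Tests were made in the 10 named classes outside the upper layers with at least 20 cells in every embryo. Of 29 pairs of gene and class (Arpp21 in microglia-like cells was below the count filter), 8 were called lower and none higher in KO against WT (5 for Arpp21, 2 for R3hdm1, 1 for R3hdm2), 2 in Het against WT (both Arpp21), and 1 in KO against Het (Arpp21). Among all genes of a class, between 0.286% and 24.1% were called in KO against WT, 0.0% and 2.78% in Het against WT, and 0.0% and 10.4% in KO against Het. In KO against WT the share was 14.9% or more in 5 of the 10 classes, which held 7 of the 8 calls. At an unadjusted p under 0.05 the counts were 11, 10 and 4. By share, all genes passing that threshold in KO against WT ran from 1184 of 9442 (mural or fibroblast-like) to 5154 of 12767 (layer V-like). In Het against WT they ran from 772 of 9442 (mural or fibroblast-like) to 2409 of 11881 (striatal-like). In KO against Het they ran from 529 of 9442 (mural or fibroblast-like) to 3146 of 12767 (layer V-like).

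Outside the cortical layers, Arpp21 fell in striatal-like cells of both mutant genotypes. WT embryos had 128, 114 and 120.5 CPM, Het embryos 77.6, 65.1, 73.8 and 79.5, and KO embryos 54.2, 42.4 and 56.4, from 237 to 862 UMIs per embryo. All Het embryos lay below all WT embryos and above all KO embryos. The log2 fold change was -0.70 ± 0.09 in Het (adjusted p = 0.00104, edgeR) and -1.25 ± 0.10 in KO (adjusted p = 7.82e-07), and KO against Het gave -0.54 ± 0.10 (adjusted p = 0.0144). Among all genes of the class, 2.5% were called in Het against WT, 16.7% in KO against WT and 0.774% in KO against Het. Erythroid-like cells had 17.0 CPM of Arpp21 in WT and 3.41 in KO without TMM scaling. The part of free RNA in the striatal-like values was not tested. The fall was of like size in both clusters of the class: in the one led by Six3, Zfhx3 and Pbx3 it was -0.74 ± 0.09 in Het and -1.27 ± 0.10 in KO, and in the one led by Ebf1 and Isl1, a factor of striatal projection neurons, -0.68 ± 0.13 and -1.19 ± 0.15.

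Striatal markers overlapped between the groups. The summed level of the 13 striatal markers lay between 2186 and 2523 CPM in WT, 1993 and 2473 in Het, and 2186 and 2560 in KO. The 8 layer VI markers summed to between 999.8 and 1063 CPM in these cells in WT, 969.7 and 1031 in Het, and 949 and 1040 in KO, and the 6 layer V markers to between 87.5 and 112, 69.9 and 133, and 65.8 and 112 CPM. All these ranges overlapped. The 7 markers of ganglionic eminence progenitors were higher, between 427 and 506 CPM in WT, 491 and 581 in Het, and 546 and 687 in KO, and the part of this in the result was not tested. With the prefix in the fit, the KO change was -1.11 ± 0.16 (adjusted p = 0.00271) and still called, while the Het change was -0.60 ± 0.13 (adjusted p = 0.251) and was not, with only Het4 left to compare with WT. The difference of KO from Het stayed called with the prefix in the fit (-0.50 ± 0.10, adjusted p = 0.0252, edgeR). It was also called among the Het and KO embryos that share a prefix (-0.50 ± 0.10, adjusted p = 0.0298, edgeR). Without KO2 the difference of KO from Het was not called (-0.42, adjusted p = 0.0824).

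In the same striatal-like cells, R3hdm1 fell in KO embryos and R3hdm2 was not called. R3hdm1 had 226, 223 and 217 CPM in WT, 202, 204, 199 and 206 in Het, and 184, 172 and 189 in KO. The 3 groups did not overlap, with -0.29 ± 0.06 in KO (adjusted p = 0.00211, edgeR, among 16.7% of genes called) and -0.13 ± 0.05 in Het (adjusted p = 0.176). With the prefix in the fit the KO change of R3hdm1 was -0.26 ± 0.09 and was no longer called (adjusted p = 0.22). R3hdm2 had 156 to 173 CPM in WT and 142 to 160.1 in KO, which overlap (-0.07 ± 0.07, adjusted p = 0.54).

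**Figure D4:**
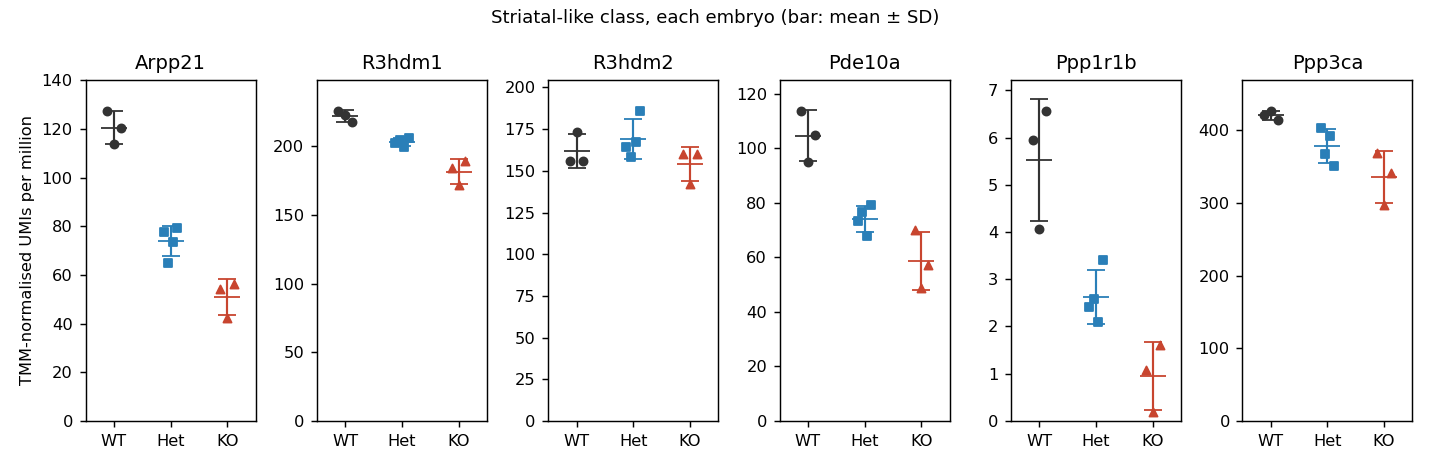
Arpp21, R3hdm1, R3hdm2, Pde10a, Ppp1r1b and Ppp3ca in striatal-like cells, in TMM-scaled CPM; dots are embryos and bars show the mean and SD of 3 WT, 4 Het and 3 KO embryos. Arpp21 steps down from WT (114 to 128 CPM) to Het (65.1 to 79.5 CPM) and KO (42.4 to 56.4 CPM), and R3hdm2 overlaps between the groups.

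Deep-layer neurons, which had the highest levels of Arpp21, showed smaller falls in KO embryos. Layer V-like cells had 314, 292 and 316 CPM in WT, 246, 239.5, 265 and 299 in Het, and 241, 231 and 251 in KO. The KO embryos lay below WT (-0.35 ± 0.07, adjusted p = 0.00178, edgeR), KO1 and KO3 within the range of the Het embryos and KO2 below it. The Het embryos overlapped with WT through Het4, and Het against WT was not called (-0.23 ± 0.07, adjusted p = 0.0903). Layer VI-like cells had 633, 625 and 599.7 CPM in WT, 526, 509, 525 and 589 in Het, and 426 to 508 in KO, where KO3 stood above the other two. There the groups did not overlap, KO against WT was called (-0.45 ± 0.07, adjusted p = 1.28e-04), and Het against WT was not (-0.20 ± 0.07, adjusted p = 0.125). KO against Het gave -0.24 ± 0.07 in layer VI-like cells (adjusted p = 0.0247), short of the size needed for a call, which it reached without Het1, Het2 or KO3, at a finer clustering or without integration (-0.33 to -0.25).

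Calls were common in deep-layer neurons: 24.1% of genes in layer V-like and 22.3% in layer VI-like cells were called in KO against WT, 1.96% and 1.93% in Het against WT, and 10.4% and 10.1% in KO against Het. The deep-layer calls of Arpp21 did not hold when the prefix was in the fit (layer V -0.09 ± 0.09, adjusted p = 0.621, layer VI -0.27 ± 0.11, adjusted p = 0.161), and for layer V at a finer clustering (-0.14 ± 0.08, adjusted p = 0.193). Without Het4, Het against WT was called in layer V-like (-0.30, adjusted p = 0.0029) and layer VI-like cells (-0.26, adjusted p = 0.0136). Markers also moved in these classes: the 8 layer VI markers summed to 583 to 622 CPM in layer V-like cells of WT and 821 to 886 in KO, and the part of this in the result was not tested. R3hdm1 in layer V-like cells had 164 to 182 CPM in WT and 151 to 156 in KO (-0.16 ± 0.06, adjusted p = 0.0376), short of the size for a call, and -0.12 ± 0.06 in layer VI-like cells (adjusted p = 0.147). R3hdm2 was at -0.03 ± 0.08 and 0.02 ± 0.06 in the KO embryos of these 2 classes.

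The fall of Arpp21 was larger in striatal-like than in deep-layer-like cells. In a fit of both classes with the embryo as a block, the log2 fold change in striatal-like cells minus that in layer V- and VI-like cells together was -0.52 ± 0.07 in Het against WT (adjusted p = 4.33e-04, edgeR's quasi-likelihood test of the interaction), -0.85 ± 0.07 in KO against WT (adjusted p = 1.57e-07) and -0.34 ± 0.07 in KO against Het (adjusted p = 0.00765). Of all genes, 1.07%, 10.2% and 3.72% were called for such a difference in the same 3 comparisons. The part of free RNA in the Arpp21 differences was not tested. A term that lets the prefix act differently in the 2 classes left the differences at -0.59, -0.95 and -0.36, all called. Without KO2 the difference in KO against Het was -0.25 and not called (adjusted p = 0.0709). R3hdm1 and R3hdm2 gave no called difference, at -0.15 ± 0.06 (adjusted p = 0.126) and -0.06 ± 0.06 (adjusted p = 0.631) in KO against WT.

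Interneuron-like cells held little Arpp21, and no member was called in them. WT embryos had 45.8, 35.6 and 40.1 CPM of Arpp21, Het embryos 19.9, 29.2, 24.3 and 37.6, and KO embryos 24.3, 19.7 and 40.6. Both mutant groups overlapped with WT (-0.52 ± 0.23, adjusted p = 0.344 in Het, and -0.50 ± 0.25, adjusted p = 0.217 in KO, edgeR). The class joins 4 clusters, of which 3 are described here, and differences between the clusters were not tested. In the largest, led by Maf and Nxph1, Arpp21 was at 15.8 ± 4.18 CPM in WT and 5.54 ± 2.13 in KO. These levels are near those of erythroid-like cells (17.0 and 3.41 CPM), which are also lower in KO, and the part of free RNA in them was not tested. The cluster led by Adarb2 and Htr3a had 35.5 ± 4.71 CPM in WT and 15.2 ± 3.55 in KO, and its embryos did not overlap. The cluster led by Sst and Npy had the highest level, and its embryos overlapped (72.6 to 113 CPM in WT and 62.3 to 146 in KO). It made up from 3.42% (Het1) to 18.5% (WT2) of an embryo's cells of the class. The KO value of the class ranged from -0.88 without KO3 to -0.30 without KO2, and was 0.11 with the prefix in the fit and -0.01 with doublets removed or without integration. In this class 0 of 13010 genes (0.0%) were called in Het against WT by edgeR, against 1771 at an unadjusted p under 0.05 and 58 with DESeq2, 8.57% in KO against WT and 0.546% in KO against Het. The change of Arpp21 in interneuron-like minus deep-layer-like cells was -0.35 ± 0.18 in Het (0.0143% of genes called) and -0.13 ± 0.20 in KO (6.56% called), and neither was called. R3hdm1 was at -0.20 ± 0.07 in KO (adjusted p = 0.0999) and R3hdm2 at -0.11 ± 0.07 (adjusted p = 0.321).

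Progenitors gave calls of Arpp21 on few UMIs. The radial glia-like class is 1 cluster, named for 3 radial glia markers among its leading genes (Fabp7, Aldoc and Hes5), but its mean marker score was higher for oligodendrocyte precursors (3.94) than for radial glia (2.60), and Olig1 of the oligodendrocyte lineage is among its leading genes. The name is therefore uncertain. The class had 41.97, 17.7 and 29.1 CPM in WT, 8.25, 13.5, 5.33 and 14.6 in Het, and 5.80, 14.7 and 14.4 in KO, from 18 to 105 UMIs per embryo. Both mutant groups lay below WT (-1.45 ± 0.33, adjusted p = 0.0263 in Het, 2.78% of genes called, and -1.36 ± 0.35, adjusted p = 0.0101 in KO, 21.0% called, edgeR), and KO against Het was at 0.09 ± 0.37 (2.29% of genes called). Intermediate progenitor-like cells had 12.5, 10.0 and 24.6 CPM in WT, 12.6, 4.24, 12.5 and 12.6 in Het, and 4.58, 9.47 and 9.03 in KO, from 14 to 70 UMIs. KO against WT was just called (-1.02 ± 0.34, adjusted p = 0.0484), among 14.9% of genes, and Het against WT (0.789% of genes called) and KO against Het (3.16%) were not. In erythroid-like cells Arpp21 was at 17.0 CPM in WT and 3.41 in KO as a share of all UMIs, a difference that was not called after TMM normalisation (-0.53 ± 0.46, adjusted p = 0.541, edgeR). The WT level of intermediate progenitor-like cells was near this, the other progenitor means were higher, and the part of RNA from other cells in the progenitor values was not tested. DESeq2 called neither class (adjusted p = 0.0684, 0.0571 and 0.212 for radial glia-like Het and KO and intermediate progenitor-like KO). With the prefix in the fit none of the 3 was called, at -0.97 (adjusted p = 0.461) and -0.63 (adjusted p = 0.652) in radial glia-like cells of Het and KO and -0.71 (adjusted p = 0.606) in intermediate progenitor-like cells of KO. The radial glia-like call in Het was lost without any of WT1, WT3, Het1 or Het3 (adjusted p = 0.0554 to 0.115), the one in KO without WT1 or KO1 (adjusted p = 0.0578 and 0.06), and the intermediate progenitor-like call without any of WT1, WT3, Het1, Het3, KO1, KO2 or KO3 (adjusted p = 0.0555 to 0.338). The summed level of the 5 oligodendrocyte precursor markers in radial glia-like cells lay between 532 and 699.8 CPM in WT, 249 and 634 in Het, and 223 and 248 in KO, and the part of this in the result was not tested. At a finer clustering, in which 191 oligodendrocyte precursor-like cells formed a cluster of their own, Arpp21 in radial glia-like cells was at -1.16 ± 0.41 in Het (adjusted p = 0.142, edgeR) and -1.37 ± 0.44 in KO (adjusted p = 0.0454).

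R3hdm2 was called in 1 class, radial glia-like cells of KO embryos, where 21.0% of all genes were called. It had 95.9, 102 and 99.5 CPM in WT, 85.5, 82.2, 82.9 and 94.2 in Het, and 81.0, 68.5 and 72.4 in KO. The groups did not overlap, with -0.42 ± 0.09 in KO (adjusted p = 0.00311, edgeR) and -0.20 ± 0.08 in Het (adjusted p = 0.193). With the prefix in the fit the KO change was -0.24 ± 0.14 (adjusted p = 0.401), and at the finer clustering it was -0.37 ± 0.09 (adjusted p = 0.0117). R3hdm1 was not called in radial glia-like or intermediate progenitor-like cells (-0.12 ± 0.09 and -0.07 ± 0.07 in KO).

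Cajal-Retzius-like cells, early neurons of the cortical surface that secrete reelin, gave the second call of R3hdm1. It had 203, 184 and 179 CPM in WT, 127, 160.2, 176 and 172 in Het, and 135, 156 and 137 in KO. No mutant embryo reached the WT range (-0.25 ± 0.10, adjusted p = 0.377 in Het, 0.152% of genes called, and -0.41 ± 0.11, adjusted p = 0.0269 in KO, 5.47% called, edgeR). KO against Het gave -0.16 ± 0.10 (0.979% of genes called). The class had 48 to 111 cells per embryo, and the KO call was lost without any of WT1, WT2, WT3, KO1 or KO3 (adjusted p = 0.0568 to 0.118), with the prefix in the fit (-0.25, adjusted p = 0.642), with doublets removed (-0.31, adjusted p = 0.109) and at no more than 5% mitochondrial UMIs (-0.37, adjusted p = 0.057). Arpp21 there had 27.9, 64.5 and 29.6 CPM in WT, 23.5, 23.3, 15.4 and 31.7 in Het, and 16.6, 17.1 and 31.7 in KO. Both mutant groups overlapped with WT and neither was called (-0.81 ± 0.26, adjusted p = 0.275 in Het, and -0.88 ± 0.30, adjusted p = 0.0893 in KO, edgeR). Without a filter on low counts both were called (-0.81, adjusted p = 2.39e-04 in Het, and -0.90, adjusted p = 1.60e-04 in KO), and without KO3 the KO change was called too (-1.27, adjusted p = 0.049). Without WT2, the highest embryo, the changes were -0.30 in Het and -0.38 in KO, with the prefix in the fit -0.37 and -0.29, and with doublets removed 0.10 and -0.03, none of them called.

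Genes that share a domain or a pathway with the 3 members were counted from 5 lists of 39 genes, chosen with earlier results of these data known. In striatal-like cells of KO embryos, the cAMP and protein kinase A list had 2 of its 10 genes called lower and none higher (median log2 fold change 0.10, against -0.01 over all 11881 genes tested), near the 16.7% of all genes called there. These were Pde10a, the phosphodiesterase of medium spiny neurons (114, 95.0 and 105 CPM in WT, 73.2, 76.5, 68.0 and 79.1 in Het, 70.1, 48.9 and 57.0 in KO, -0.84 ± 0.11, adjusted p = 6.58e-05, edgeR), and Ppp1r1b, which codes for DARPP-32, a protein kinase A substrate of the same neurons. Pde10a was also called in Het (-0.49 ± 0.09, adjusted p = 0.0129). Pde10a with the prefix in the fit was at -0.71 ± 0.18 in KO (adjusted p = 0.0618) and -0.40 ± 0.14 in Het (adjusted p = 0.522), and neither was called. Ppp1r1b rested on 1 to 47 UMIs per embryo (-2.56 ± 0.42 in KO, adjusted p = 5.30e-04), and with the prefix it was at -2.02 ± 0.64 and not called (adjusted p = 0.155).

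Of the calmodulin and calcineurin list, 1 of 7 genes was called in striatal-like cells of KO embryos, Ppp3ca, a catalytic subunit of calcineurin (-0.33 ± 0.07, adjusted p = 0.00565, list median 0.04). The R3H or SUZ domain list had 1 of 7 genes called, Szrd1, which was higher (0.41 ± 0.13, adjusted p = 0.0314, list median -0.04). None of the 7 genes of the cap-binding complex was called there (median 0.10). Of the 8 reported targets of miR-128, Upf1, a helicase of nonsense-mediated decay, was higher (0.41 ± 0.10, adjusted p = 0.00761) and Reln, also a Cajal-Retzius marker, lower (-0.81 ± 0.27, adjusted p = 0.0429), with a list median of -0.12. Over the 5 lists 6 of 39 genes were called, beside 16.7% of all genes in the class. In Het embryos Pde10a was the only listed gene called in striatal-like cells. None of these 6 KO calls, nor the 1 in Het, held with the prefix in the fit, where edgeR called 131 genes in KO, against 1984 without it, and 2 in Het, against 297. Ppp3ca was then at -0.47 ± 0.12 (adjusted p = 0.068), Szrd1 at 0.03 and Upf1 at 0.19, and Reln turned to 0.09.

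In the deep layers the lists split in direction, and 8 of 39 listed genes were called in layer VI-like and 6 of 39 in layer V-like cells of KO embryos, beside 22.3% and 24.1% of all genes. Layer VI-like cells of KO embryos had the protein kinase A subunit Prkar2b (-0.31 ± 0.06, adjusted p = 5.74e-04, edgeR), Ppp3ca (-0.42 ± 0.08, adjusted p = 3.77e-04), Ppp1r1b (-0.50 ± 0.12), Nfx1, an R3H domain factor (-0.38 ± 0.10), Parn, a poly(A) nuclease with an R3H domain (-0.34 ± 0.11), and Phf6 (-0.30 ± 0.07) called lower, and Szrd1 (0.57 ± 0.13) and Dcx, a microtubule protein of young neurons (0.33 ± 0.06), called higher. Layer V-like cells had Ppp1r1b higher instead (1.06 ± 0.13, from 10.7 to 13.98 CPM in WT to 22.9 to 26.7 in KO, adjusted p = 1.23e-05), as were Calm2 (0.26 ± 0.06), Szrd1 (0.35 ± 0.09) and R3hcc1 (0.28 ± 0.08), while Prkar1b (-0.43 ± 0.11) and Nfx1 (-0.35 ± 0.09) were lower. No listed gene was called in Het against WT in layer V- or VI-like cells, and no gene of the cap-binding list was called in either comparison with WT there. The 5 list medians in KO against WT lay between -0.03 and 0.11 in layer V-like cells and between -0.05 and 0.12 in layer VI-like cells, beside 0.00 and -0.01 over all genes. Of the 8 calls in layer VI-like cells 2 held with the prefix in the fit, Prkar2b (-0.42 ± 0.09, adjusted p = 0.00378) and Ppp3ca (-0.65 ± 0.11, adjusted p = 2.54e-04). In layer V-like cells 3 of 6 held, Ppp1r1b (1.39 ± 0.19, adjusted p = 1.11e-04), Prkar1b (-0.75 ± 0.16, adjusted p = 0.00404) and Calm2 (0.33 ± 0.09, adjusted p = 0.0178). Nfx1 in layer V-like cells turned to 0.04, and Ppp3ca (-0.33 ± 0.09) and Prkar2b (0.36 ± 0.08) were called there in that fit alone.

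Listed genes were also called in KO against WT in the other neural classes. Radial glia-like cells had 7 of 39 listed genes called, where 21.0% of all genes were, among them Prkar1b (-1.59 ± 0.31), Ntrk3 (-0.65 ± 0.11), Pde10a (-0.71 ± 0.19) and Ppp3ca (-0.46 ± 0.08) lower and Pabpc1 (0.31 ± 0.08) and Eif4a1 (0.29 ± 0.09) of the cap-binding complex higher. Intermediate progenitor-like cells, with 14.9% of all genes called, had 8, namely Prkar1b (-0.99 ± 0.12), Pde1b (-0.50 ± 0.09), Prkar2b (-0.48 ± 0.14) and Nfx1 (-0.34 ± 0.10) lower, and Adcy5 (0.65 ± 0.20), Upf1 (0.35 ± 0.10), Eif4g1 (0.29 ± 0.07) and Ppp3r1 (0.28 ± 0.09) higher. Interneuron-like cells (8.57% of all genes called) had Nfx1 (-0.35 ± 0.09) and Reln (-0.71 ± 0.15) lower, and Cajal-Retzius-like cells (5.47%) Dcx (0.45 ± 0.10) higher. The prefix in the fit left 1 of the 7 calls in radial glia-like cells (Pde10a, -1.35 ± 0.27, adjusted p = 0.00747), 1 of 8 in intermediate progenitor-like cells (Prkar1b, -1.07 ± 0.21, adjusted p = 0.00456), 0 of 2 in interneuron-like and 0 of 1 in Cajal-Retzius-like cells. Neuronal transcripts among these genes can reach progenitors as free RNA, and its part in the progenitor values was not tested.

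No member was called in the 3 tested classes outside the neural lineage, which held few cells (as few as 20 in an embryo for mural or fibroblast-like and 21 for microglia-like cells). In mural or fibroblast-like cells R3hdm1 and R3hdm2 lay near 0 in KO against WT (-0.02 ± 0.14 and 0.00 ± 0.14), and Arpp21, with 1 to 40 UMIs per embryo, was at -1.13 ± 0.75 (adjusted p = 0.578, edgeR). In microglia-like cells R3hdm2 was at -0.71 ± 0.37 (adjusted p = 0.296, edgeR) and R3hdm1 at -0.32 ± 0.40. In erythroid-like cells R3hdm1 was at -0.01 ± 0.41 and R3hdm2 at 0.30 ± 0.45. As a share of all UMIs both were lower there in KO (R3hdm1 14.4 CPM in WT and 4.06 in KO, R3hdm2 12.3 and 4.36). Values in this class therefore depend on the scaling. After TMM scaling 236 of its genes were called higher and 29 lower in KO against WT. Of all genes in these classes, the test called 0.286%, 1.52% and 11.3% in KO against WT, 0.0106%, 0.0% and 0.085% in Het against WT, and 0.0%, 0.0% and 7.82% in KO against Het, in the order mural or fibroblast-like, microglia-like and erythroid-like. The classes with 0 calls had 529 genes (mural or fibroblast-like, KO against Het), 423 and 259 (microglia-like, Het against WT and KO against Het) at an unadjusted p under 0.05, and DESeq2 called 1, 21 and 1. Among listed genes, Pabpc1, which binds poly(A) tails, was called higher in erythroid-like cells of KO (1.09 ± 0.30, adjusted p = 0.0177, edgeR) and Dcx, a microtubule-binding protein of migrating neurons, lower in microglia-like cells of KO (-2.59 ± 0.53, adjusted p = 0.0315). Dcx rested there on 49, 91 and 97 UMIs in WT and 19, 3 and 1 in KO. Erythroid-like cells, which should lack Dcx, had 53.2 to 79.9 CPM of it in WT and 10.2 to 27.3 in KO, beside 167 to 268 and 5.28 to 68.7 CPM in microglia-like cells, and the part of free RNA in this call was not tested. Neither was called with the prefix in the fit (Pabpc1 0.99 ± 0.42, adjusted p = 0.136, and Dcx -2.75 ± 0.93, adjusted p = 0.345).

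The genes with levels most like Arpp21 changed unevenly in KO embryos. Of the 4 that passed the count filter in progenitors, Camkv (-1.46 ± 0.33), Shtn1 (-1.18 ± 0.22), Tenm2 (-0.996 ± 0.23) and Prkar2b (-0.48 ± 0.14) were called lower in intermediate progenitor-like cells, where 14.9% of all genes were called. Radial glia-like cells (21.0%) had Camkv (-1.66 ± 0.39), Shtn1 (-1.46 ± 0.29) and Tenm2 (-1.13 ± 0.29) called lower and Prkar2b at -0.13 ± 0.14. These genes also had UMIs in erythroid-like cells, fewer in KO: Shtn1 had 22.1 to 38.7 CPM there in WT and 2.64 to 15.95 in KO, beside 35.7 to 45.3 and 16.4 to 19.2 in intermediate progenitor-like cells. Camkv had 3.77 to 4.44 and 0.76 to 1.36 CPM in erythroid-like cells, beside 5.47 to 5.82 and 1.36 to 2.31. The part of free RNA in the progenitor calls was not tested. Interneuron-like cells (8.57%) had Tenm2 (-0.69 ± 0.07, adjusted p = 2.98e-04, edgeR) and Shtn1 (-0.45 ± 0.11, adjusted p = 0.0243) called lower, and Camkv (-0.79 ± 0.25, adjusted p = 0.0616), Prkar2b (-0.05 ± 0.09) and A830018L16Rik (-0.10 ± 0.27) were not called, nor was Arpp21. In striatal-like cells (16.7%) Camkv (-1.14 ± 0.22, adjusted p = 0.00176, edgeR) and Tenm2 (-0.59 ± 0.15, adjusted p = 0.0108) were called lower, and Prkar2b (-0.10 ± 0.08), Shtn1 (-0.03 ± 0.09) and A830018L16Rik (-0.40 ± 0.27) were not. In layer VI-like cells (22.3%) Tenm2 (-0.82 ± 0.09), Prkar2b (-0.31 ± 0.06) and Camkv (-0.26 ± 0.06) were called lower, and Shtn1 was not (-0.12 ± 0.07). A830018L16Rik also passed the threshold there (-0.36 ± 0.10), with the limit given above. In layer V-like cells (24.1%) A830018L16Rik (-1.20 ± 0.08) and Tenm2 (-0.49 ± 0.08) were called lower, and the other three were not. These are 17 calls with A830018L16Rik in layer VI-like cells included. Of the 17 calls 5 held with the prefix in the fit, Tenm2 (-0.72 ± 0.12 and -1.05 ± 0.14) and A830018L16Rik (-1.29 ± 0.13 and -0.59 ± 0.15) in layer V- and VI-like cells and Prkar2b in layer VI-like cells (-0.42 ± 0.09). None of those in striatal-like, interneuron-like or progenitor cells held, where Camkv and Tenm2 in striatal-like cells were at -0.73 ± 0.33 (adjusted p = 0.372) and -0.73 ± 0.25 (adjusted p = 0.194). Shtn1 (0.35 ± 0.09) and Prkar2b (0.36 ± 0.08) in layer V-like cells were called higher in that fit alone.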

How the data were processed

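Cortices of 10 embryos at E16.5 (3 WT, 4 Het, 3 KO, 1 library each) were processed by the authors with the 10x Genomics 3' version 3 chemistry and aligned to mm10, and the submitters' processing notes name Cell Ranger 6.0.2. The authors deposited unnormalized UMI counts per gene and barcode, which were checked to be whole numbers. Kept UMIs per embryo ranged from 82872641 to 123737385.

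The study's filters, a minimum of 1000 UMIs and a maximum of 10% mitochondrial UMIs, were applied to cells. Doublets were scored with Scrublet in scanpy 1.11.5. Its automatic threshold marked 0.03% to 2.53% of an embryo's cells, under 0.5% in Het1, Het3, KO1 and KO2, where it had not worked, so cells were kept and the expected share (0.8% per 1000 barcodes) was removed as an alternative. Clustering used Seurat 5.3.0 (R 4.3.3) with 2000 variable genes, 30 corrected principal components over embryos and a resolution of 0.4. The members, the listed genes and Gatad2b were left out of the variable genes. A cluster was named where its mean marker score was at least 0.5, 3 or more markers reached 10% of its cells and 2 were among its 10 leading genes. These cutoffs were set after clusters had been seen. The unnamed clusters included some with few UMIs per cell and some with many, among them one with embryo medians of 19636 to 25640.5 UMIs.

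UMIs were summed per embryo and class, for the 10 named classes outside the upper layers with at least 20 cells in every embryo (upper-layer classes are described only), and fitted over all 10 embryos with edgeR 4.0.16 (filterByExpr, TMM, quasi-likelihood F-test, Benjamini-Hochberg). The embryo was the replicate, where the study's own test was on cells. Simulated data with known changes were run through the same steps: in striatal-like cells (11881 genes, KO against WT) 93% of genes changed by 1.3 and 37% of those changed by 0.5 on the log2 scale were called, in layer V-like cells (12767 genes) 94% and 44%, and for the striatal-like minus deep-layer-like difference 73% of genes changed by 1. The simulated counts had the same spread for every gene, no effect of the prefix and no change in the other genes. The rates describe that setting and are not the power of the tests on the real data.

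The members, lists and comparisons were chosen with earlier results of these data known. Named genes are the members, the genes of the 5 lists, Gatad2b, and the 5 genes with the highest Pearson r with Arpp21 over the WT class means of log2(CPM + 1), among genes with a WT mean of at least 50 CPM in a class. Embryo numbers were not used to pair the groups, since the labels do not say what they mean. Deviations of same-numbered embryos had a median r of -0.0052, with 15 of 108 pairs above 0.1. For other pairs the median was -1e-04, with 30 of 288 above 0.1. Whether the numbers pair embryos was not settled by this. Coordinates are from GENCODE vM21. Intervals and p-values cover the spread between embryos and counting error only. Alternatives were DESeq2 1.42.0, other size factors, no filter on low counts, a replicate block, the prefix as a covariate, other cell filters and clusterings, and each embryo left out. A group of embryos within the prefix of WT, single clusters of a class, a class by prefix term and the prefix in the fits of listed and Arpp21-like genes were added after seeing the data.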

Additional observations from a re-analysis of the deposited data

Results flagged for a closer look

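The change of Arpp21 differed between striatal-like and deep-layer-like cells by the test of the interaction in edgeR's quasi-likelihood fit, by -0.52 in Het against WT, -0.85 in KO against WT and -0.34 in KO against Het (log2, striatal-like minus deep-layer-like).

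Of 39 groups of 4 embryos (3 genes in 13 classes of Het), 3 held an embryo far from the other three by Dixon's criterion, where chance gives about 1 in 20. In CPM without TMM scaling, Arpp21 in intermediate progenitor-like cells was at 4.18 in Het2. R3hdm1 was at 203 in settled upper-layer-like cells of Het4 and at 60.7 in microglia-like cells of Het2. Het4 is also the Het embryo that shares a name prefix with WT. The causes were not tested.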

How the results depend on the processing

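Of 1883 alternative values of 87 tested results, 1683 kept their direction and side of the threshold. A call was lost in 43 and gained in 12, and 145, over 38 results, changed sign with no call before or after. Of the 87 results only 8 were calls in KO against WT, 2 in Het against WT and 1 in KO against Het. Most results therefore had no call to lose. In 8 of the 145 the reported value was larger than its standard error. These were Arpp21 in Cajal-Retzius-like cells of Het (-0.81 to 0.10 with doublets removed) and, with the prefix, Arpp21 in interneuron-like cells of KO (-0.50 to 0.11), R3hdm1 in layer VI-like cells of Het (0.03, also within the prefix of WT) and KO (0.03), and R3hdm2 in Cajal-Retzius-like (0.01), intermediate progenitor-like (0.10) and interneuron-like (0.05) cells of KO. The 1 member call in KO against Het (striatal-like Arpp21) held with the prefix as a covariate and within the prefix of KO (-0.50 in both). Among the alternatives, the prefix as a covariate ended the most calls. With it, KO against WT kept 1 of 8 member calls (striatal-like Arpp21) and Het against WT 0 of 2. Arpp21 was then at -0.71 in intermediate progenitor-like, -0.088 in layer V-like, -0.27 in layer VI-like and -0.63 in radial glia-like cells of KO, at -0.97 in radial glia-like and -0.60 in striatal-like cells of Het, R3hdm1 at -0.25 (Cajal-Retzius-like) and -0.26 (striatal-like), and R3hdm2 at -0.24 (radial glia-like) in KO. In upper-layer cells, which were not tested, Arpp21 moved to -0.88 (migrating, Het), -1.47 (migrating, KO), -0.22 (settled, Het) and -0.71 (settled, KO), and R3hdm2 turned to 0.051 (migrating, Het), 0.011 (migrating, KO) and 0.040 (settled, Het). A comparison within the prefix of WT gave the same Het values (-0.88, -0.97, -0.60, 0.051, 0.040 and 0 calls), since both rest on Het4.

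DESeq2 left Het against WT with 1 call, and Arpp21 not called at -1.03 (intermediate progenitor-like, KO), -1.50 and -1.35 (radial glia-like, Het and KO). Resolution 0.8 gave -1.03 (intermediate progenitor-like, KO), -0.14 (layer V-like, KO) and -1.16 (radial glia-like, Het), with 1 call in Het against WT and 2 in KO against Het. Without integration the values were -0.73 (intermediate progenitor-like, KO), -1.17 (radial glia-like, Het) and -0.71 (settled upper-layer-like, KO), and layer V-like cells gave no value. Removing doublets gave -0.79 for Arpp21 in intermediate progenitor-like and -0.31 for R3hdm1 in Cajal-Retzius-like cells of KO, and at most 5% mitochondrial UMIs gave -0.91 and -0.37. Single clusters gave -1.17 and -0.59 for settled upper-layer-like Arpp21 in KO, and -0.51 for striatal-like Arpp21 in KO against Het, not called in the cluster led by Ebf1.

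The replicate block treats same-numbered embryos as sets, which the labels do not state, and Het4 has no partner in it. It raised member calls in Het against WT from 2 to 4 and left KO against WT at 8. Over all genes it raised calls in Het against WT from 297 to 1195 in striatal-like, 250 to 818 in layer V-like and 230 to 784 in layer VI-like cells. The rise in member calls is therefore not particular to these genes. Leaving out 1 embryo gave 1 to 4 member calls in Het against WT, 5 to 8 in KO against WT and 0 to 2 in KO against Het. Calls over all genes in striatal-like cells then ran from 8 to 1071, 1216 to 2203 and 13 to 82 in the same order. Arpp21 then ranged from -1.27 to -0.57 (intermediate progenitor-like, KO), -1.74 to -1.14 and -1.65 to -0.97 (radial glia-like, Het and KO) and -0.62 to -0.42 (striatal-like, KO against Het), its striatal-like minus deep-layer-like difference in KO against Het from -0.38 to -0.25, and R3hdm1 from -0.47 to -0.36 (Cajal-Retzius-like, KO).

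Counts of all genes called moved by more than 1.5 times under some settings. In striatal-like cells the prefix brought 1984 genes to 131 in KO against WT and 297 to 2 in Het against WT, where the block gave 1195 and no filter 782. Het against WT in interneuron-like cells went from 0 to 571 with the block. Leaving out 1 embryo gave 8 to 1071 genes in striatal-like and 0 to 357 in interneuron-like cells in Het against WT. In KO against WT it gave 1216 to 2203 and 309 to 1365. The deep layers in Het against WT ranged from 67 to 742 (layer V-like) and from 42 to 788 (layer VI-like) in the same way. KO against WT in layer V-like cells went from 3074 to 1470 with the prefix, in layer VI-like cells from 2659 to 955, in interneuron-like from 1115 to 19, in radial glia-like from 2502 to 492, in intermediate progenitor-like from 1676 to 324 and in Cajal-Retzius-like cells from 576 to 108 (379 with DESeq2). In the sparse classes, KO against WT went from 27 to 103 with DESeq2 and 381 with no filter (mural or fibroblast-like), from 65 to 162 and 546 (microglia-like), and from 265 to 235 and 129 (erythroid-like). Of 40 calls of listed genes in KO against WT the prefix kept 7, and of 2 in Het against WT 0; it turned Nfx1 in layer V-like (-0.35 to 0.04) and Reln in striatal-like cells (-0.81 to 0.09). In KO against Het the prefix kept 9 of 11 calls of listed genes and 6 of 6 calls of the genes most like Arpp21. Causes were not tested. Depth limits the progenitor values of Arpp21, with as few as 14 UMIs in an embryo.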
